A study of Arabidopsis thaliana with 16 samples.

Results

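Genes of the redox system that links light to chloroplast metabolism, and a thioredoxin-superfamily gene, were followed on 16 Arabidopsis thaliana expression arrays. Of these arrays 8 carried RNA of the wild type (WT) and 8 RNA of the pete1 mutant. The members are NTRC (AT2G41680), FTRB (AT2G04700), PRXIIE (AT3G52960), the superfamily gene AT4G08280 and PRK (AT1G32060). They were chosen by name, with earlier results of these data known, as genes to which a probe belongs alone. Each of the 5 has exactly 1 such probe among the 692 probes that name 1 gene and the 3439 probes of an array. Both groups were ecotype Columbia 0 plants grown on soil, and the mutant lacks a plastocyanin isoform, a copper protein that carries electrons to photosystem I. In the sample titles soil is named for pete1 only. The labels give no organ, age, allele or number of plants. Nor do they tell whether arrays are separate plants or repeats of 1 RNA, so p-values describe only array-to-array spread, part of which may be technical. The comparison asks whether pete1 and WT had different amounts of the transcripts of these 5 genes.

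In the chloroplast, electrons that leave photosystem I reduce ferredoxin, and ferredoxin-thioredoxin reductase passes them to thioredoxins, small proteins that open disulfide bonds in their target enzymes. NTRC is a separate reductase that draws on NADPH and carries a thioredoxin domain of its own. Targets include enzymes of the Calvin cycle, such as phosphoribulokinase, and peroxiredoxins, which remove peroxides. These switches act on proteins, whereas the arrays measured transcripts.

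Values are spot intensities on a linear scale from 0 to 100. Between 13.2% and 24.6% of an array's values were 0, with the highest shares on pete1 replicates 1 and 2, and array medians ran from 0.0524 on pete1 replicate 1 to 0.205 on pete1 replicate 8. Normalized levels are log2 intensities after quantile normalization, with all values under 0.0581 set to that intensity on every array, a floor of -4.10 on the log2 scale at which 28.4% of values lay. Within a group, neighbouring arrays by number (replicates 1 with 2, 3 with 4, 5 with 6 and 7 with 8) deviated together from their group mean, with a median correlation across probes of 0.502 against -0.303 for other arrays of a group. Deviations from a shared mean offset each other, so part of the negative value comes from the centring itself. Since neighbouring arrays deviated together, each difference is given over 16 arrays and over 8 averages of such pairs, 4 per group. A level is a mean with the SD of the 4 pair averages. No probe names a plastocyanin gene alone, and none of 28 marker genes of green tissue, root, flower or seed was measured by a probe of its own, so neither the mutation nor the organ could be checked.

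Of the 5 genes 1 rose in pete1 over 16 arrays, AT4G08280, and 0 fell. In the same test 12.6% of 3231 probes passed, 6.44% higher and 6.19% lower in pete1 (limma, Benjamini-Hochberg adjusted p under 0.05). Over pair averages 0 of the 5 genes passed, against 0.774% of probes, and AT4G08280 alone of the 5 had an unadjusted limma p-value under the threshold, as did 14.4% of all probes. For 0 of the 5 were the groups free of overlap, over arrays (3.06% of probes) or over pair averages (8.05%). The median log2 difference of the 5 genes was 0.62, which is that of FTRB (limma adjusted p = 0.488), beside 0.04 over all probes tested. The differences of the 5 ran from -0.35 for PRK to 1.22 for AT4G08280. RNA came from whole samples, in which fewer cells of a type and less RNA per cell cannot be told apart.

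**Figure D1:**
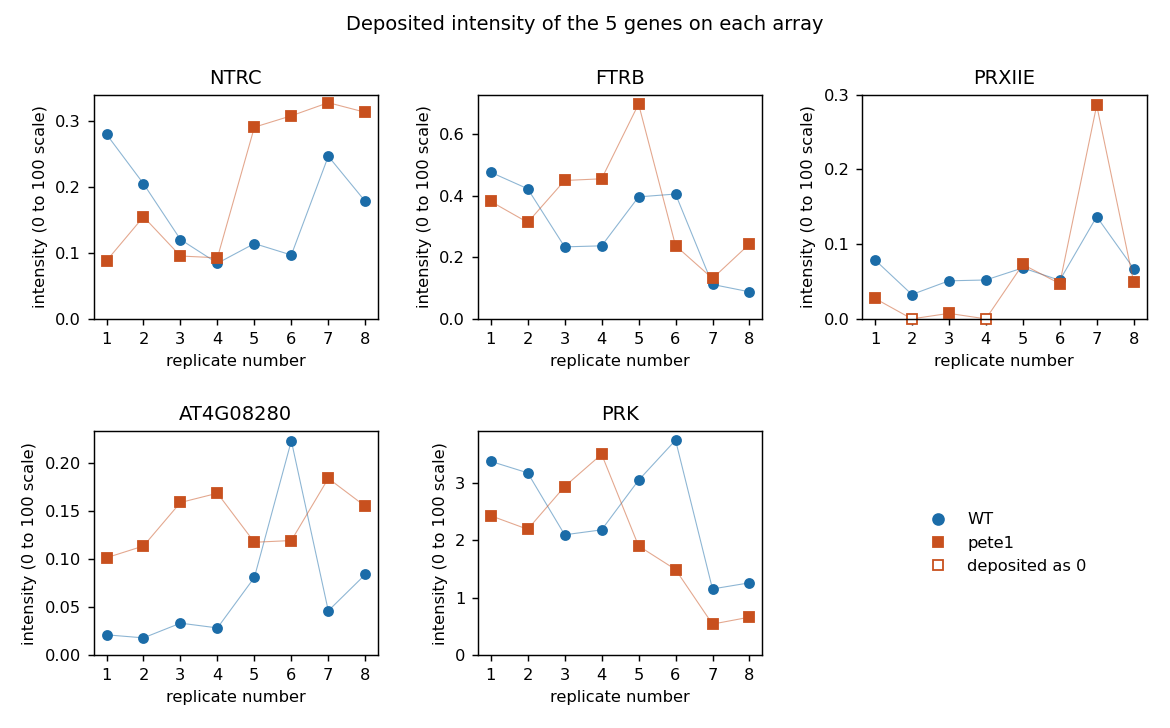
Deposited intensity (vertical axis, scale of 0 to 100) of the 5 genes against replicate number for 8 WT arrays (circles) and 8 pete1 arrays (squares), with open symbols for values deposited as 0. AT4G08280 lies between 0.102 and 0.184 on the pete1 arrays and at or below 0.0841 on all WT arrays except replicate 6, and PRK is lowest on replicates 7 and 8 of both groups.

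FTRB encodes the catalytic subunit of ferredoxin-thioredoxin reductase. Its deposited intensity was 0.0878 on the lowest, 0.317 on the median and 0.476 on the highest WT array, and 0.131, 0.347 and 0.698 in pete1. No value was 0, and the groups overlapped. After normalization WT lay at -2.08 ± 1.14 and pete1 at -1.45 ± 1.07 (log2, SD, n = 4 pair averages). The difference was 0.62 on the log2 scale with a 95% interval of -0.47 to 1.72 over 16 arrays (limma adjusted p = 0.488) and -0.97 to 2.22 over pair averages (limma adjusted p = 0.733). After normalization FTRB was above the highest WT level of -0.99 on 5 of 8 pete1 arrays, replicates 1 to 5, and within the WT range on the other 3. On the deposited scale 1 pete1 array, replicate 5, lay above every WT array, and the difference was 0.36 (limma adjusted p = 0.607). Replicates 1 to 4 of pete1 had the lowest array medians, and the part of these medians in the FTRB levels was not tested. Of the consecutive arrays for FTRB, replicates 5 and 6 of pete1 differed most, at -0.77 and -2.46. Its lowest pair average was that of replicates 7 and 8 in both groups, at -3.70 in WT and -2.91 in pete1. The difference without WT replicates 7 and 8 was 0.08, and without pete1 replicates 7 and 8 it was 1.11, both over pair averages.

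NTRC encodes the NADPH-dependent thioredoxin reductase of the chloroplast. Its deposited intensity was 0.0842, 0.149 and 0.279 on the lowest, median and highest WT array and 0.0879, 0.222 and 0.327 in pete1, with no value of 0. On the deposited scale the pete1 arrays split: replicates 1 to 4 lay between 0.0879 and 0.155, and replicates 5 to 8 between 0.290 and 0.327, above every WT array. The array medians were likewise 0.0524 to 0.0856 on pete1 replicates 1 to 4 and 0.196 to 0.205 on replicates 5 to 8. The part of these array medians in the NTRC values was not tested.

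After normalization NTRC was -2.82 ± 0.54 in WT and -2.15 ± 0.32 in pete1 (log2, SD, n = 4 pair averages). All 8 pete1 arrays lay above the WT median of -2.88, but 3 WT arrays, replicates 1, 2 and 7, lay above the lowest pete1 array. The difference was 0.67 on the log2 scale, or 1.59-fold, with a 95% interval of 0.17 to 1.16 over 16 arrays (SE 0.23, limma adjusted p = 0.0740). Over pair averages the interval was -0.05 to 1.39 (SE 0.31, limma adjusted p = 0.377). Without WT replicate 1, the WT array with the highest level, the difference over arrays was 0.80 (limma adjusted p = 0.0217). NTRC also passed with array weights, where 20.7% of probes did, with the replicate number as a block (17.5%) and with cyclic loess normalization (11.5%). On the deposited scale, where the median probe differed by -0.30, the difference in NTRC was 0.25 (limma adjusted p = 0.716).

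**Figure D2:**
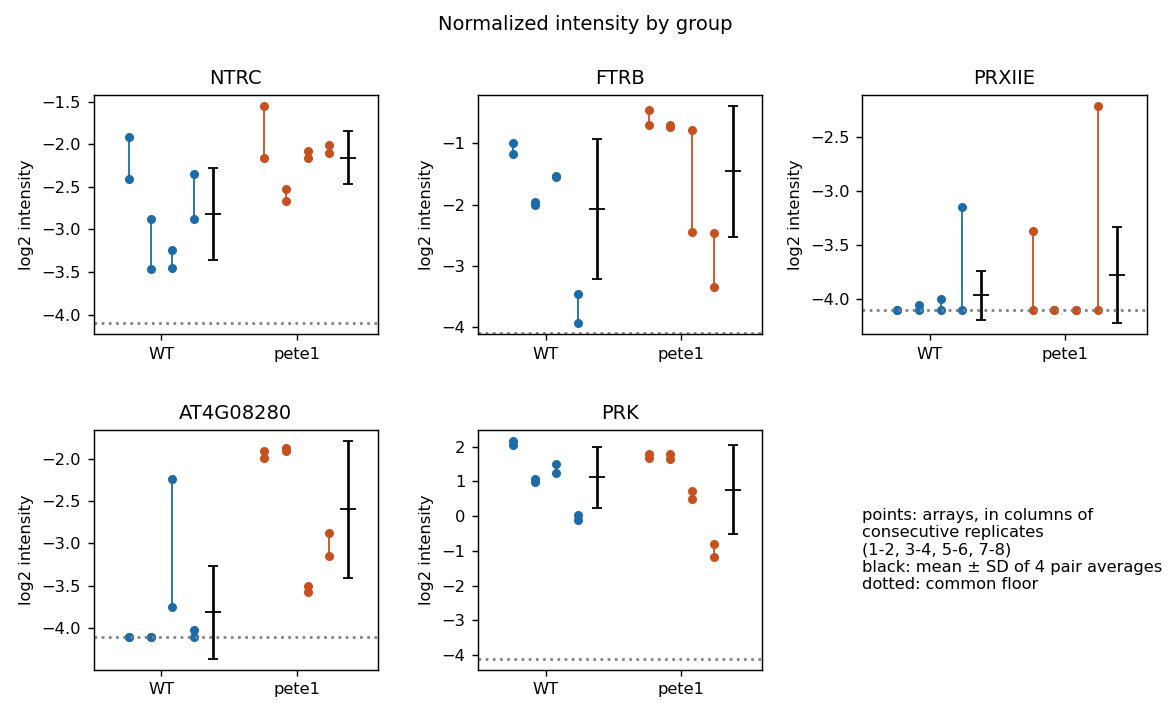
Normalized intensity (vertical axis, log2) of the 5 genes in WT and pete1, with 1 point per array, lines joining consecutive replicates, black bars for the mean ± SD of 4 pair averages and a dotted line at the common floor of -4.10. NTRC ranges from -3.46 to -1.92 in WT and from -2.67 to -1.54 in pete1, and for PRXIIE 5 of 8 WT arrays and 6 of 8 pete1 arrays sit on the floor.

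PRXIIE encodes a chloroplast peroxiredoxin, a thiol peroxidase. It was the only member with values of 0, on 2 of 8 pete1 arrays (replicates 2 and 4) and on 0 of 8 WT arrays. Its deposited intensity was 0.0326, 0.0597 and 0.137 on the lowest, median and highest WT array, and 0, 0.0373 and 0.286 in pete1. After normalization it was at the common floor on 5 of 8 WT and 6 of 8 pete1 arrays, so no fold is given. Above the floor stood replicate 7 of both groups, at -3.15 in WT and -2.21 in pete1, together with WT replicates 3 and 5 and pete1 replicate 1. The difference of 0.19 on the log2 scale (limma adjusted p = 0.685 over 16 arrays and 0.788 over pair averages) became -0.035 without pete1 replicate 7, and it was -0.21 on the deposited scale.

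AT4G08280 is known by its locus name and as a member of the thioredoxin superfamily, proteins that share the thioredoxin fold. It stands in none of the lists of related genes given below, and its part in the chloroplast redox system was not tested. AT4G08280 was listed at 0 on none of the 16 arrays. Its deposited intensity was 0.0181 on the lowest, 0.0398 on the median and 0.223 on the highest WT array, and 0.102, 0.137 and 0.184 in pete1. Of the WT arrays 7 lay below every pete1 array, the highest of these being replicate 8 at 0.0841, and WT replicate 6 lay above all 8 pete1 arrays.

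After normalization AT4G08280 rose from -3.82 ± 0.55 in WT to -2.60 ± 0.81 in pete1 (log2, SD, n = 4 pair averages), with 5 of 8 WT arrays and 0 of 8 pete1 arrays at the common floor. The difference was 1.22 on the log2 scale over 16 arrays, with a 95% interval of 0.50 to 1.93 (SE 0.34, limma adjusted p = 0.0267). Since the floor stands in for most WT values, the size depends on it: with a floor set on each array the difference was 2.17 (limma adjusted p = 0.0174, where 13.5% of probes passed). Over pair averages AT4G08280 did not pass (95% interval 0.18 to 2.25, SE 0.45, limma adjusted p = 0.258), nor with the pairs as a random block (limma adjusted p = 0.136, where 4.46% of probes passed). With the replicate number as a block, where 17.5% of probes passed, it did not pass either (limma adjusted p = 0.0630).

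The 4 pair averages of WT in AT4G08280 were -4.10, -4.10, -2.996 and -4.06, and those of pete1 were -1.95, -1.90, -3.54 and -3.01, in the order of replicate numbers. The WT average of replicates 5 and 6 thus lay above 2 of the 4 pete1 averages. The highest pete1 levels were on replicates 1 to 4, the arrays with the lowest medians. Without pete1 replicates 1 and 2, which have the most values of 0, the difference over 14 arrays was 1.001 (limma adjusted p = 0.0959), and without WT replicates 5 and 6 it was 1.49 (limma adjusted p = 0.0072), both settings chosen after the values were seen. Leaving out any 1 of pete1 replicates 1 to 4 also took the adjusted p over the threshold (limma adjusted p = 0.0514 to 0.0577). The part of array brightness in this difference was not tested; on the deposited scale, which leaves array brightness uncorrected, the difference was 1.26 (limma adjusted p = 0.0284 over 16 arrays, where 11.8% of probes passed, and 0.314 over pair averages).

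PRK encodes phosphoribulokinase, the Calvin cycle enzyme that regenerates the acceptor of carbon dioxide and that thioredoxin activates. Its deposited intensity was 1.15 on the lowest, 2.62 on the median and 3.75 on the highest WT array and 0.542, 2.05 and 3.50 in pete1, so the groups overlapped broadly and no value was 0. Normalized levels were 1.11 ± 0.89 in WT and 0.76 ± 1.28 in pete1 (log2, SD, n = 4 pair averages). The difference was -0.35 on the log2 scale, with a 95% interval of -1.38 to 0.68 over 16 arrays (SE 0.49, limma adjusted p = 0.682) and -1.94 to 1.24 over pair averages (limma adjusted p = 0.853). The interval therefore spans both a fall and a rise of PRK transcripts in the mutant.

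**Figure D3:**
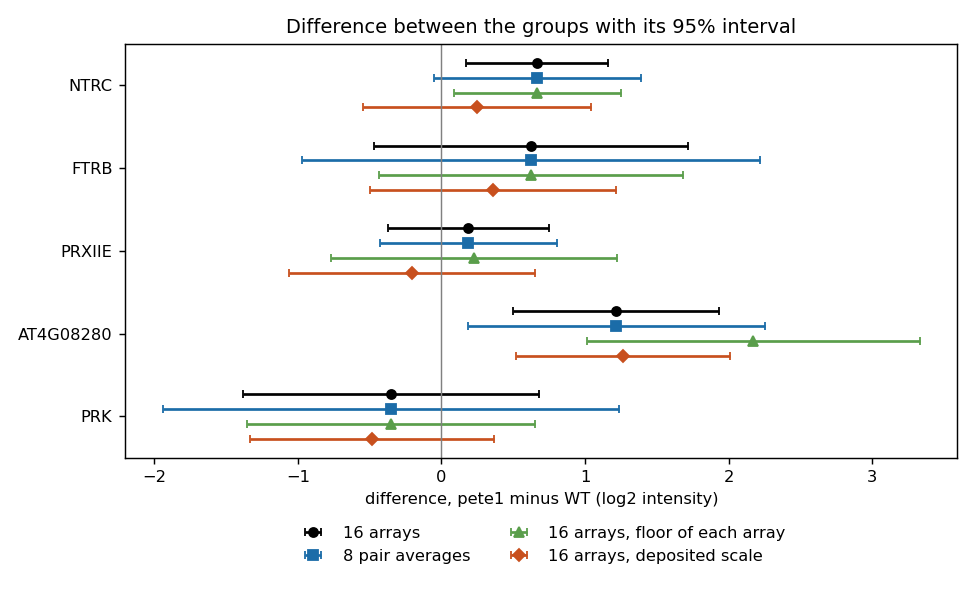
Difference between pete1 and WT (horizontal axis, log2 intensity) for the 5 genes with its 95% interval from limma, over 16 arrays, over 8 pair averages, over 16 arrays with the floor of each array, and over 16 arrays on the deposited scale. The intervals of FTRB, PRXIIE and PRK include 0 in all 4 fits, and those of AT4G08280 lie above 0 in all 4. The intervals are not adjusted for the number of probes. Unadjusted limma p-values under 0.05 were found for 26.7% of all probes over 16 arrays and 14.4% over pair averages. After adjustment AT4G08280 did not pass over pair averages (limma adjusted p = 0.258). With the replicate number as a block, not drawn, the FTRB interval was 0.04 to 1.21 (limma adjusted p = 0.129).

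PRK and FTRB varied widely between array pairs of the same group. For PRK the SD between consecutive arrays was 0.147 and the SD between pair averages of a group was 1.104, a spread larger than that of 92.4% of the 3231 probes. FTRB had SDs of 0.496 and 1.11, the latter larger than for 92.7% of probes. The medians over all probes were 0.354 and 0.599. NTRC (0.288 and 0.443) and AT4G08280 (0.384 and 0.691) were closer to these medians, and PRXIIE, mostly at the floor, had 0.561 and 0.354.

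In order of level, the pair averages of PRK in WT were 2.098 for replicates 1 and 2, 1.37 for 5 and 6, 1.03 for 3 and 4, and -0.04 for 7 and 8. In pete1 they were 1.73 for replicates 1 and 2, 1.71 for 3 and 4, 0.61 for 5 and 6, and -0.99 for 7 and 8. Replicates 7 and 8 were lowest in both groups, by more than 1 on the log2 scale, and the top 2 averages of pete1 differed by less than the SD within pairs. Array medians on replicates 7 and 8 were 0.184 and 0.193 in WT and 0.203 and 0.205 in pete1, the highest of each group. The part of array brightness in these levels was not tested. Without these 4 arrays, the difference in PRK over 12 arrays was -0.15 (limma adjusted p = 0.800) and that in FTRB 0.57 (limma adjusted p = 0.323).

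PRK and FTRB followed each other across arrays, with a Spearman correlation of 0.81 and a Pearson correlation of 0.82 over 16 arrays, and 0.88 and 0.85 over 8 pair averages. Without the 2 arrays farthest from the median of FTRB the Spearman correlation was 0.75, and without the 2 farthest pair averages it was 0.77. Within the groups the Spearman correlation of PRK and FTRB was 0.93 over 8 WT arrays and 0.96 over 8 pete1 arrays. These values are descriptions: consecutive arrays are not independent, and all genes share the arrays. Among the other pairs of members Spearman correlations over 16 arrays ran from -0.32 for PRXIIE and PRK to 0.505 for FTRB and AT4G08280, and NTRC and PRK had one of -0.0044.

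**Figure D4:**
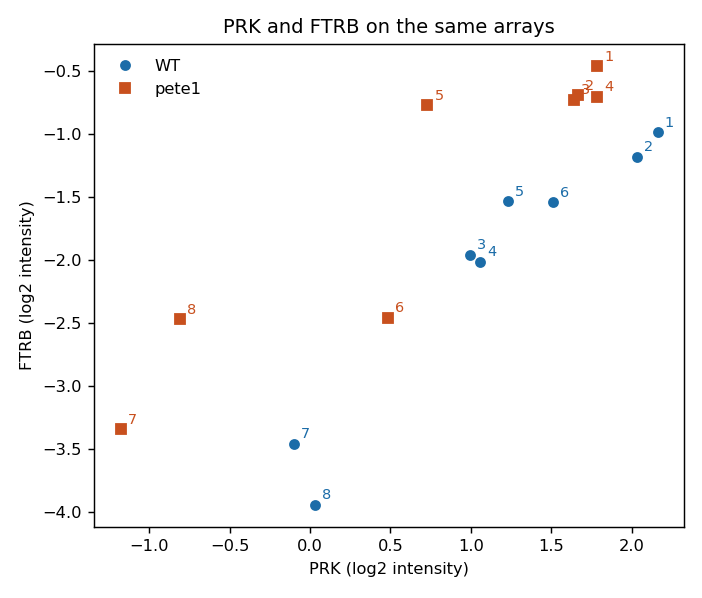
Normalized intensity of FTRB (vertical axis, log2) against that of PRK (horizontal axis, log2) on the same array, with replicate numbers beside the points of WT (circles) and pete1 (squares). Replicates 7 and 8 of both groups lie at the lower left, and the Spearman correlation over all 16 arrays is 0.81.

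Genes with the most similar pattern were sought among 420 or 421 other probes that name 1 gene and lie at the common floor on at most 4 arrays. For PRK they were THIC, which makes the pyrimidine part of thiamine (Spearman correlation 0.91 over 16 arrays), SIRB, sirohydrochlorin ferrochelatase (0.85), and AT1G62150 (0.83). For FTRB they were AT5G19050 (0.83), AT1G04420 (0.82) and PRK. AT4G38490 (0.89), TPP2, tripeptidyl peptidase II (0.85), and AT3G15140 (0.79) were closest to AT4G08280, which lay at the floor on 5 of 16 arrays. AT2G46850 (0.81), AT4G09620 (0.79) and AT4G13550 (0.77) were closest to NTRC. PRXIIE was left out because most of its values lie at the floor. Without the 2 arrays farthest from the median of the member, these correlations ran from 0.69 to 0.86. They were taken over both groups together, so a difference between WT and pete1 enters them. In the order named, the genes closest to NTRC differed by 0.81, 0.97 and 1.75 (log2, pete1 minus WT). Those closest to AT4G08280 differed by 1.54, 1.17 and 0.88, and those closest to PRK by -0.21, -0.12 and 0.12. For FTRB, AT5G19050 differed by 1.04 and AT1G04420 by 0.53. Apart from the values within each group given above for FTRB and PRK, the part of the group difference in these correlations was not tested.

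**Figure D5:**
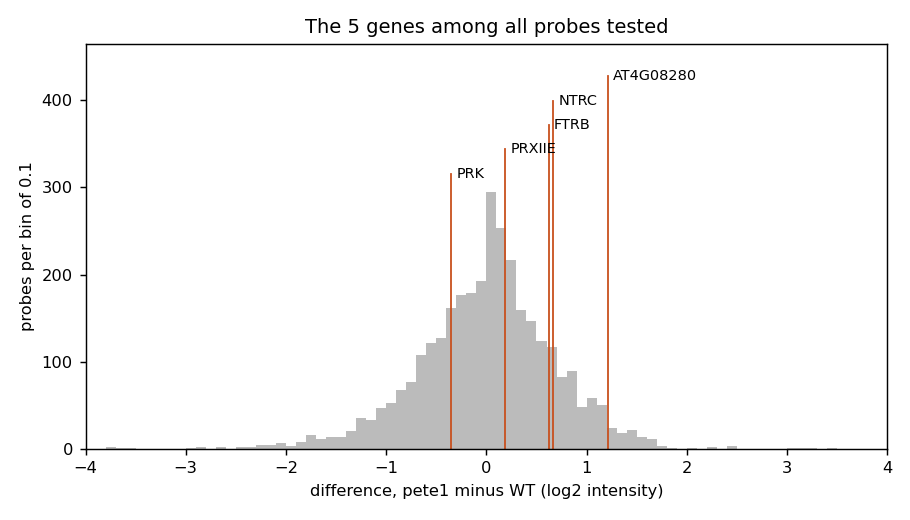
Number of probes (vertical axis, per bin of 0.1) by their difference between pete1 and WT (horizontal axis, log2 intensity, 16 arrays), with vertical lines at the 5 genes. PRK at -0.35 and PRXIIE at 0.19 lie near the median probe at 0.04, FTRB and NTRC at 0.62 and 0.67, and AT4G08280 at 1.22.

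Around the members, 83 genes were listed as chloroplast thioredoxins and reductases, thiol peroxidases, thioredoxin-regulated enzymes, other Calvin cycle genes, ferredoxin and its reductases, and other thioredoxins and glutaredoxins. Of these 7 were measured by a probe of their own: NTRC and FTRB of 25 chloroplast thioredoxins and reductases, PRXIIE and SRX of 10 thiol peroxidases and related genes, and PRK, SBPASE and NADP-MDH of 17 regulated enzymes and partners. The 11 other Calvin cycle genes, the 6 ferredoxin genes and the 14 other thioredoxins and glutaredoxins had 0 such probes. Of these 7 genes 0 passed the test in either direction, over 16 arrays (12.6% of all probes) or over pair averages (0.774%). Before adjustment, limma put 1 of the 7, NTRC, past the threshold over 16 arrays, where 26.7% of all probes were, and 0 over pair averages, where 14.4% were. A further 8 probes name a listed gene together with another gene and were attributed to none; 0 of the 8 passed in limma over 16 arrays, also before adjustment (26.7% of all probes), with log2 differences from -0.57 to 0.66.

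SRX encodes sulfiredoxin, which repairs overoxidized peroxiredoxins. It was 0 on 2 WT arrays and 1 pete1 array, lay at the common floor on 5 and 3, and differed by 0.52 on the log2 scale (SE 0.34, limma adjusted p = 0.371). SBPASE encodes sedoheptulose-bisphosphatase, a thioredoxin-regulated Calvin cycle enzyme; its probe read 0 on 8 of 8 WT arrays and 6 of 8 pete1 arrays and has no measurable fold. NADP-MDH, the malate dehydrogenase that exports reducing power from the chloroplast and is switched on by thioredoxin, had a deposited intensity of 0.175 on the lowest, 0.233 on the median and 0.409 on the highest WT array and 0, 0.119 and 2.51 in pete1.

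On pete1 replicates 1 to 4 NADP-MDH read between 0 and 0.0545, below every WT array, and on replicate 7 it read 2.51, above all others. Its normalized levels were -2.15 ± 0.44 in WT and -2.75 ± 1.74 in pete1 (log2, SD, n = 8 arrays). The difference of -0.60 (SE 0.59, limma adjusted p = 0.568) did not pass with that array included, and without pete1 replicate 7 it was -1.16 (limma adjusted p = 0.0255). Over pair averages it did not pass with all pairs (limma adjusted p = 0.738) or without pete1 replicates 7 and 8 (-1.26, limma adjusted p = 0.269).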

How the data were processed

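The authors' deposited table gives 1 intensity for each of 3439 probes on each of 16 arrays, read here from the values as linear and capped at 100. How the arrays were scanned, background-corrected and scaled, and on which genome build, is not given in the sources used here. Groups and replicate numbers came from the sample titles. Probes were named through the platform annotation and the RefSeq TAIR10.1 table: 692 name 1 gene (690 matched), 870 several and 1877 none.

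With limma 3.58.1 in R 4.3.3, intensities were quantile-normalized. The 5th percentile of each array's positive values was found, the highest of these (0.0581) was the floor on all arrays, and log2 was taken. After leaving out 208 probes at the floor on all arrays, 3231 were tested over 16 arrays with lmFit and eBayes, two-sided, without a block, with Benjamini-Hochberg adjustment at 0.05. The fit was tested on simulated data with independent noise on each array. That simulation does not cover neighbouring arrays that deviate together, as they do here. The number of arrays limits the precision.

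The members and lists were chosen with earlier results of these data known. Named genes are the 5 members, every listed gene with a probe of its own, and, for each member at the floor on at most 8 arrays, the 3 genes with the highest Spearman correlation. Alternatives were other normalizations, floors, filters and tests, array weights, blocks, pair averages and left-out arrays.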

Additional observations from a re-analysis of the deposited data

Results flagged for a closer look

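In 15 groups of 8 arrays (the 5 genes and SRX, SBPASE and NADP-MDH, leaving out SBPASE in WT, where all values are equal) a single array was sought whose gap to the next exceeded Dixon's 95% critical share of the group's range. Chance gives about 1 in 20 such groups for independent values that follow a normal distribution. Values tied at the floor and neighbouring arrays that deviate together depart from this, so that rate is no measure for these groups. Such a gap was found in 6 groups, each with 1 array above the others. For PRXIIE that array was replicate 7 in both groups, at -3.15 in WT above a next array at -3.998, and at -2.21 in pete1 above one at -3.38 (log2). AT4G08280 was -2.24 on WT replicate 6, with the next at -3.75. SRX was -2.46 on WT replicate 6, with the next at -3.60, and the SBPASE level of pete1 replicate 8 was -3.32, with all others at the floor. In these 5 groups 5 to 7 of the other arrays lay at the common floor, which narrows the range of the rest. In pete1 the NADP-MDH level of replicate 7 was 1.15, above a next array at -2.12, 1 of the others lay at the floor.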

How the results depend on the processing

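The 408 calls over 16 arrays (208 higher, 200 lower in pete1) became 265 with the exact Wilcoxon test, 668 with array weights, 144 with pairs as a random block, 25 over pair averages, 9 over these with a floor set on each array and 24 over these on the deposited scale. Leaving out 1 array gave 307 to 406 calls, and leaving out 1 pair of the pair averages 2 to 48. The share of higher calls, 51.0%, was 12.4% on the deposited scale, 38.3% with median centring and 61.0% with the floor of each array, where the median probe differed by -0.30, -0.05 and 0.22.

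AT4G08280 kept its direction in all 43 fits (adjusted p from 0.0045 to 0.474) and missed the threshold in 19: over pair averages (1.22, and 2.17 with floors set array by array, adjusted p = 0.204; 1.26 on the deposited scale), with pairs as a random block (1.22, adjusted p = 0.136), with the replicate block (1.22, adjusted p = 0.0630), in 4 fits without 1 pete1 array, in 8 without 1 pair, and, chosen after seeing the data, without pete1 replicates 1 and 2 (1.001, adjusted p = 0.0959) and without replicates 7 and 8 of both groups (1.27, adjusted p = 0.0810). With 1 array left out it ran from 1.11 to 1.44 and with 1 pair left out from 0.98 to 1.53. NTRC (adjusted p from 0.0061 to 0.879) gained a call with cyclic loess (0.79, adjusted p = 0.0453), with array weights (0.90, adjusted p = 0.0061), with the replicate block (0.67, adjusted p = 0.0378) and without WT replicate 1; with 1 array left out it ran from 0.58 to 0.80 and with 1 pair left out from 0.49 to 0.89. PRXIIE, never called, reversed to -0.21 on the deposited scale (with pair averages too), -0.24 when arrays were centred on their median, -0.12 on their 75th percentile, -0.19 with cyclic loess and -0.11 with an offset, and with 1 array or pair left out ran from -0.035 to 0.30 and from -0.018 to 0.30. PRK, never called, was 0.041 as a difference of medians in the exact Wilcoxon test and ran from -0.73 to 0.23 with 1 pair left out. FTRB, never called, did not reverse. NADP-MDH was called in 2 of 43 fits, without pete1 replicate 7 and without replicates 7 and 8 of both groups (-1.33, adjusted p = 0.0374). The cause was not tested.

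What a replicate number shared by WT and pete1 stands for is not in the labels. Deviations of same-numbered arrays correlated at 0.0633 to 0.435, over 0.1 for 7 of 8 numbers, and 15 of 16 arrays were closest to their own number, a hint from the data. The replicate block gave 566 calls, with limma adjusted p of 0.129 for FTRB (0.62), 0.467 for PRXIIE (0.19) and 0.347 for PRK (-0.35). With this block the SE was 0.26 for FTRB, against 0.52 without it, and 0.24 for PRK, against 0.49. The floor limits PRXIIE, SRX and SBPASE. Leaving out the dimmest 25% of probes removed PRXIIE and SBPASE.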

Other observations

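The ratio of FTRB to PRK intensity on the same array, looked at after their values had been seen, does not depend on the scaling of an array in the deposited values. As a log2 ratio it was -3.84 on the lowest, -3.18 on the median and -2.83 on the highest WT array, and -2.94, -2.66 and -1.45 in pete1. After normalization it was -3.97, -3.11 and -2.76 in WT and -2.94, -2.30 and -1.50 in pete1. Over arrays the groups thus overlapped on both scales. The normalized pair averages ran from -3.67 to -2.91 in WT and from -2.43 to -1.91 in pete1 and did not overlap. The deposited ones, from -3.61 to -2.87 and from -2.83 to -1.75, were separated by less than the SD of either group (0.31 and 0.53). Of single probes, 8.05% had normalized pair averages free of overlap, and no such share was computed for ratios. The ratio was chosen for this difference, so no test is given.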
